A study of Mus musculus with 6 samples.

Results

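The heart's extracellular matrix holds, beside its collagens, microfibrils and elastin, small leucine-rich proteoglycans, adhesive glycoproteins, matricellular proteins and the enzymes that crosslink the fibres. Fibroblasts make most of it. Matricellular proteins bind matrix and receptors without carrying load, and many of them are low in the adult heart and are known to be made when it is injured or overloaded. The genes described are 34 non-collagen matrix and crosslinking genes, of 19030 genes with a named probe on the arrays. They were chosen by symbol, and each is represented by its probe with the highest mean log2 intensity over the 6 arrays.

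RNA from hearts of FVB mice (FvB in the labels) was measured on 6 Illumina bead arrays. Tested against sham surgery was TAC, thoracic aortic constriction, which loads the left ventricle with pressure. JMJD2a transgenic mice carried a heart-specific transgene for JMJD2A, a histone demethylase encoded by Kdm4a, and were set against wild type. The groups were transgenic TAC (2 arrays), transgenic sham (1 array), wild-type TAC (2 arrays) and wild-type sham (1 array). Mice were aged 8 weeks by the labels, while the design text counts their age in years, and it puts collection of the hearts at 3 weeks past the operation. No source used here names the promoter of the transgene, the founder lines or whether an array holds 1 heart or a pool. The p-values therefore cover the variation among these arrays, which may be technical in part.

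All 6 arrays had medians of 56.3 to 56.4 on the linear intensity scale, and pairs of arrays correlated at r = 0.978 to 0.993 over the 11157 genes tested. The number of arrays limits the precision. Xist, the RNA that coats the inactive X in female cells, was at log2 5.41 in transgenic sham and 5.38 in wild-type TAC 2, against 10.36 to 11.03 on the other 4 arrays. The Y-linked gene Kdm5d, whose probe lay below the intensity filter, was at 6.44 and 6.24 on those same arrays and at 5.52 to 5.65 elsewhere. The labels give no sex, and surgery cannot be told apart from sex in the transgenic arrays. The brightest of the Kdm4a probes lay between 6.45 and 6.75 on all 6 arrays. A second probe above the filter was at 6.86 and 6.32 in transgenic TAC and 7.03 in transgenic sham, against 6.44 and 6.40 in wild-type TAC and 6.49 in wild-type sham. Where these probes lie relative to the transgene is not given, so they do not check the genotype labels, which are used as they stand. Cardiomyocyte markers were bright throughout, with the summed intensity of 9 genes between 110704 and 118706. Arrays give no count of cells, so more fibroblasts and more matrix RNA per fibroblast cannot be told apart.

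Of the 34 genes, 27 had a probe above the intensity filter (log2 5.88, an intensity of 58.7) and were tested, and 7 did not. The 7 were Fbln5, Aspn, Postn, Thbs4, Cthrc1, Cilp and Loxl3, whose brightest probes averaged 5.42 to 5.80, at or under the array median of 5.82. Ltbp2 and Thbs1, at 5.88, lay just above the filter and Aspn, at 5.80, just under it.

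Which of these genes differ with pressure overload was asked first with both genotypes pooled, 4 TAC against 2 sham arrays. All 4 tested genes grouped as crosslinking and processing, Lox, Loxl1, Pcolce and Serpinf1, lay higher on every TAC array than on both sham arrays. So did 5 of 6 small leucine-rich proteoglycans and 4 of 8 microfibril and elastic fibre genes. None of these passed the test over all genes. The median log2 difference of the 27 genes was 0.78, against -0.01 over all 11157 genes tested. Of the 27, 22 were higher, where 48.6% of all genes were. A total of 18 were higher with no overlap between the 4 TAC and the 2 sham arrays, beside 8.39% of all genes. Fmod and Thbs1, counted among these, had sham means of 5.87 and 5.57, under the filter of 5.88. They entered through their TAC arrays, since the filter took the mean over all 6 arrays. By limma, 0 of the 27 passed the adjusted threshold of 0.05, which 1 gene in all (0.00896%) passed, and 18 were higher at an unadjusted p under 0.05, beside 4.75% of all genes. Fmod and Thbs1 were also among the 18 at an unadjusted p under 0.05. Over all 27 genes the adjusted p in limma lay between 0.225 and 0.907. Without transgenic TAC 1, Sparc (adjusted p = 0.0232), Serpinf1 (0.0362) and Mfap5 (0.0468) passed in limma, among 37 genes in all (0.332%). Without both arrays of low Xist, where the comparison rests on wild-type TAC 1 against wild-type sham, 23 of 27 were higher with a median of 0.95.

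**Figure D1:**
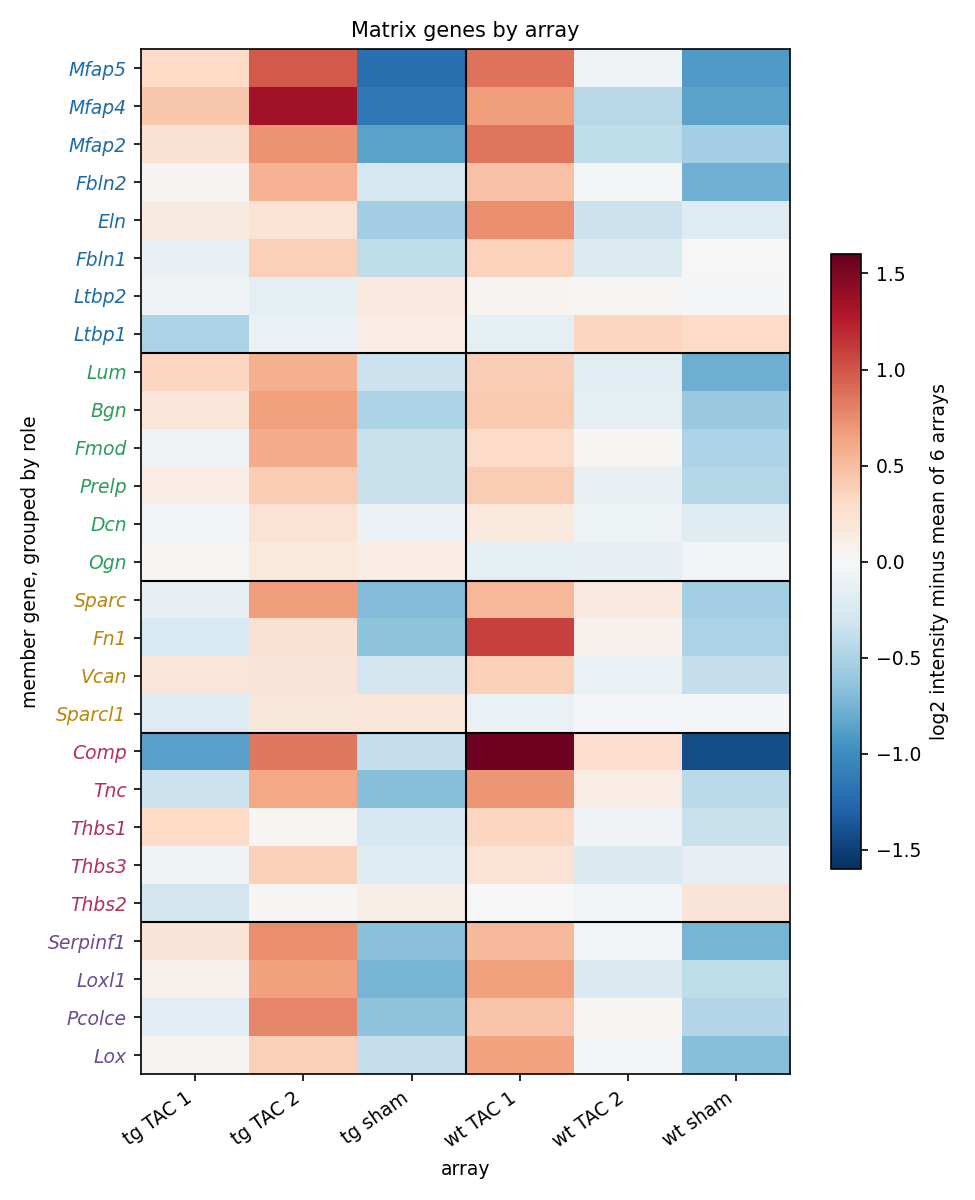
Log2 intensity of the 27 tested genes on each array (columns) minus the gene's mean over the 6 arrays, as colour; rows are grouped by role, with gene names coloured by role. Transgenic TAC 2 and wild-type TAC 1 hold the highest value of 13 and 10 genes.

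Microfibrils are thin filaments on which elastic fibres are assembled. Of 8 tested genes of microfibrils and elastic fibres 6 were higher after TAC, beside 48.6% of all genes, and 4 were higher with no overlap with sham, beside 8.39%. Mfap5, a microfibril-associated glycoprotein, was at 10.77 and 11.43 in transgenic TAC and 11.32 and 10.40 in wild-type TAC arrays, against 9.24 in transgenic sham and 9.55 in wild-type sham. All 4 TAC arrays lay above both sham arrays. The difference was log2 1.59 ± 0.28 (SE, 4 against 2 arrays, 3.0-fold, limma adjusted p = 0.225). Mfap4, a fibrinogen-domain protein bound to elastic microfibrils, was at 9.54 and 10.45 in transgenic TAC and 9.78 and 8.67 in wild-type TAC arrays, against 7.97 in transgenic sham and 8.25 in wild-type sham. Here too no TAC array reached down to a sham array, and the difference was 1.50 ± 0.37 (2.84-fold, adjusted p = 0.296 in limma). Without transgenic sham it was 0.98.

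Mfap2, the relative of Mfap5 in the same microfibrils, differed by 1.05 ± 0.32, and its other probes by 0.50 and 0.44. Fbln2, a fibulin that links basement membranes and elastic fibres, was at 11.17 and 11.68 in transgenic TAC and 11.59 and 11.10 in wild-type TAC arrays, against 10.86 in transgenic sham and 10.36 in wild-type sham. The TAC arrays were all above, by 0.78 ± 0.20 (adjusted p = 0.321 in limma), and by 1.23 without both arrays of low Xist. Elastin itself, Eln, was at 0.57 ± 0.27 with wild-type TAC 2 (7.45) below wild-type sham (7.59), and Fbln1 was at 0.31 ± 0.20 with overlapping arrays. The latent TGF-beta binding proteins store the growth factor in the matrix. Ltbp1 was at 7.19 and 7.60 in transgenic TAC and 7.54 and 8.05 in wild-type TAC arrays, against 7.82 in transgenic sham and 8.01 in wild-type sham. The wild-type TAC arrays lay on either side of their sham, and the difference over both genotypes was -0.32 ± 0.20. Ltbp2 was at 5.83 and 5.74 in transgenic TAC and 5.93 and 5.90 in wild-type TAC arrays, against 6.04 in transgenic sham and 5.86 in wild-type sham, all close to the intensity filter. Fbln5, needed for elastic fibre assembly, stayed between 5.35 and 5.53 on every array.

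Small leucine-rich proteoglycans bind collagen and set how its fibrils assemble. Of 6 tested, 5 were higher on all 4 TAC arrays than on both sham arrays, beside 8.39% of all genes. Lumican, Lum, was at 12.20 and 12.42 in transgenic TAC and 12.24 and 11.67 in wild-type TAC arrays, against 11.51 in transgenic sham and 11.07 in wild-type sham. The difference was 0.85 ± 0.16 (1.8-fold, adjusted p = 0.225 in limma), and the dimmer probe gave 0.70. Biglycan, Bgn, which is X-linked, was at 13.56 and 14.02 in transgenic TAC and 13.79 and 13.21 in wild-type TAC arrays, against 12.86 in transgenic sham and 12.78 in wild-type sham. Wild-type TAC 2, 1 of the arrays of low Xist, was the lowest TAC array. The same array was lowest for Mfap5, Mfap4 and Lum, which are not X-linked, while for Sparc it was transgenic TAC 1. The difference of Bgn over both genotypes was 0.82 ± 0.18 (adjusted p = 0.261 in limma). Prelp, which ties basement membranes to connective tissue, was at 11.97 and 12.26 in transgenic TAC and 12.26 and 11.74 in wild-type TAC arrays, against 11.50 in transgenic sham and 11.40 in wild-type sham. It differed by 0.61 ± 0.16 with no overlap (adjusted p = 0.339 in limma).

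Fibromodulin, Fmod, stood at 0.64 ± 0.18 on a low level of 5.80 to 6.89, also with no overlap. Decorin, Dcn, the close relative of biglycan, had a smaller difference of 0.21 ± 0.11. It counted as not overlapping by a narrow gap, with wild-type TAC 2 at 13.70 and transgenic sham at 13.68. Its other 3 probes gave 0.40, 0.26 and 0.12, each with overlapping arrays. Osteoglycin, Ogn, differed least, at -0.06 ± 0.12 over values of 11.30 to 11.62. Asporin, Aspn, lay under the filter at 5.70 to 5.86. Within the family the log2 difference therefore ran from -0.06 for Ogn to 0.85 for Lum, and the difference between members was not tested.

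Sparc, a collagen-binding matricellular glycoprotein that also acts in collagen secretion, was at 12.58 and 13.38 in transgenic TAC and 13.24 and 12.87 in wild-type TAC arrays, against 12.01 in transgenic sham and 12.17 in wild-type sham. No TAC array overlapped sham, and the difference was 0.93 ± 0.20 (1.91-fold, adjusted p = 0.274 in limma). Its relative Sparcl1 was at -0.13 ± 0.13 on a level of 6.16 to 6.57. Fibronectin, Fn1, onto which cells assemble new matrix, was at 8.13 and 8.61 in transgenic TAC and 9.46 and 8.44 in wild-type TAC arrays, against 7.73 in transgenic sham and 7.86 in wild-type sham. The TAC arrays did not overlap sham, with wild-type TAC 1 above the others (0.86 ± 0.28, adjusted p = 0.416 in limma). By the median over its probes, 3 of 4 of which lay under the filter, the difference was 0.12. The large proteoglycan versican, Vcan, stood at 0.50 ± 0.14 with no overlap and values of 5.88 to 6.64.

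**Figure D2:**
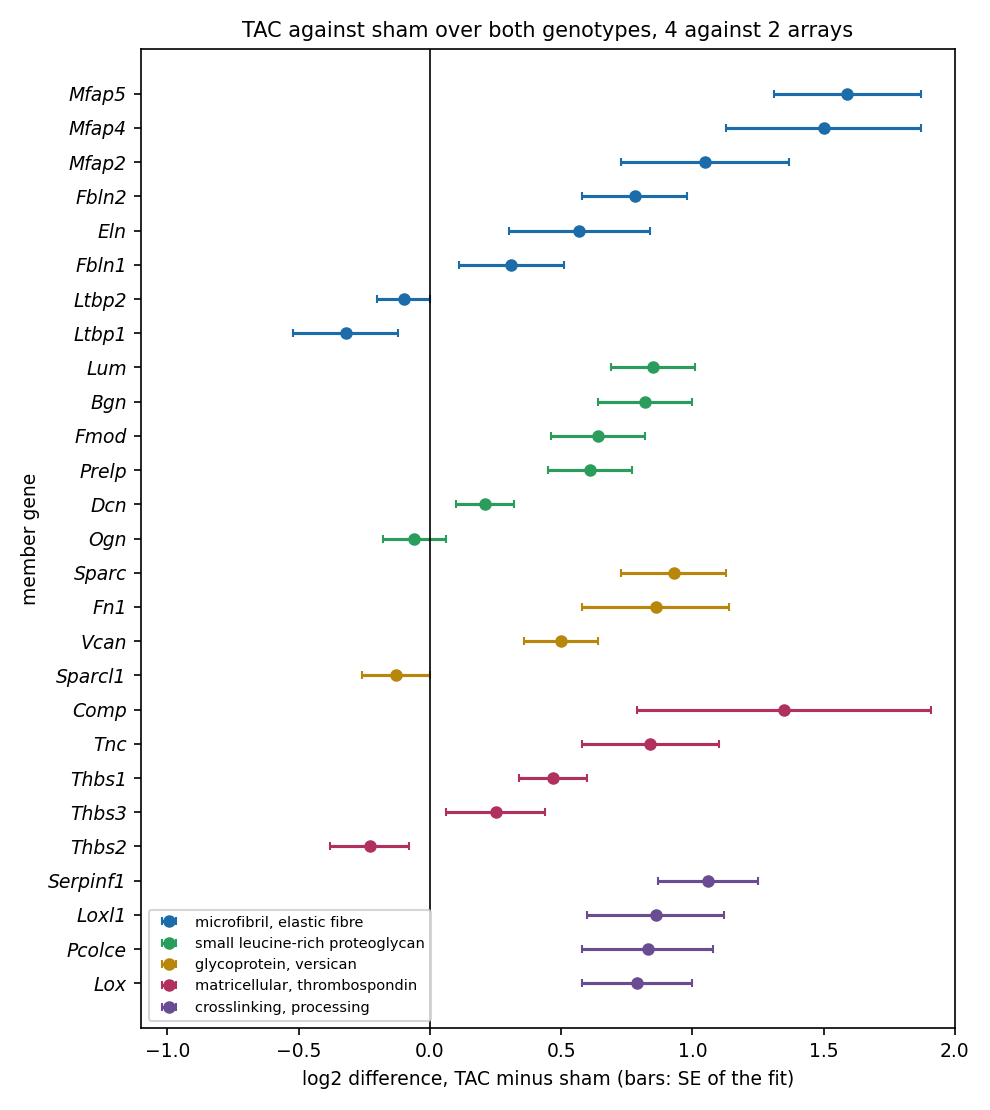
Log2 difference between 4 TAC and 2 sham arrays for each tested gene, with genotype in the model; points are estimates, bars are 1 SE of the limma fit, and colours mark roles. Mfap5 (1.59) and Mfap4 (1.50) lie farthest to the right, and 5 genes lie below 0.

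Among matricellular genes, tenascin C, Tnc, which is known to appear at sites of cardiac injury, was at 6.37 and 7.34 in transgenic TAC and 7.42 and 6.84 in wild-type TAC arrays, against 6.04 in transgenic sham and 6.28 in wild-type sham. All 4 TAC arrays lay above sham, transgenic TAC 1 by the least, and the difference was 0.84 ± 0.26 (adjusted p = 0.393 in limma). With background subtracted it was 1.45, and by the median over its 7 probes, 5 of them under the filter, it was 0.01. Thbs1, a thrombospondin that can activate latent TGF-beta, was at 0.47 ± 0.13 with no overlap, on values of 5.53 to 6.23. Thbs3 stood at 0.25 ± 0.19 with overlapping arrays. Thbs2 was the gene of the family that lay lower, at 9.03 to 9.34 in TAC arrays and 9.42 and 9.52 in sham arrays (-0.23 ± 0.15, adjusted p = 0.685 in limma). It was the single tested gene lower on all 4 TAC arrays, where 8.16% of all genes were.

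Several matrix genes known from overloaded hearts gave no signal above the array median. Periostin, Postn, was at 5.47 and 5.62 in transgenic TAC and 5.26 and 5.51 in wild-type TAC arrays, against 5.70 in transgenic sham and 5.63 in wild-type sham, and its other probes were as low. Thbs4 was at 5.40 and 5.43 in transgenic TAC and 5.51 and 5.44 in wild-type TAC arrays, against 5.58 in transgenic sham and 5.46 in wild-type sham. Cilp, a cartilage intermediate layer protein, was at 5.40 and 5.45 in transgenic TAC and 5.45 and 5.29 in wild-type TAC arrays, against 5.56 in transgenic sham and 5.47 in wild-type sham. Cthrc1, a secreted protein of activated fibroblasts, was at 5.53 and 5.44 in transgenic TAC and 5.66 and 5.65 in wild-type TAC arrays, against 5.55 in transgenic sham and 5.42 in wild-type sham. These 4 genes were not tested, and whether their probes respond to their transcripts cannot be read from these values.

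Genes grouped as crosslinking and processing, Serpinf1 among them, lay higher in every case tested, beside 48.6% of all genes. Lysyl oxidase, Lox, which crosslinks collagen and elastin, was at 7.25 and 7.59 in transgenic TAC and 7.85 and 7.18 in wild-type TAC arrays, against 6.83 in transgenic sham and 6.53 in wild-type sham. The TAC arrays were all above (0.79 ± 0.21, adjusted p = 0.339 in limma). Loxl1, the paralog tied to elastin, stood at 0.86 ± 0.26 and Pcolce, which enhances procollagen C-proteinase, at 0.83 ± 0.25, both with no overlap. Loxl3 lay under the filter at 5.61 to 5.79. Serpinf1, the secreted serpin known as pigment epithelium-derived factor, was at 12.49 and 13.03 in transgenic TAC and 12.81 and 12.24 in wild-type TAC arrays, against 11.62 in transgenic sham and 11.54 in wild-type sham. It did not overlap and differed by 1.06 ± 0.19 (2.09-fold, adjusted p = 0.225 in limma). Its second probe, near the filter at 5.93 to 6.21, gave -0.14. It was the single gene, of 13 with several probes above the filter, in which a probe had the opposite sign.

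Promoter sequence is shown for those of the 8 genes with the smallest p for TAC that the RefSeq table (GRCm38.p6) lists, as the 250 bases before the annotated start, 5′ to 3′ on the gene's strand. Capitals mark any of 6 motifs searched on both strands: the TATA box as TATAAA, the GC box as GGGCGG, the CCAAT box, the TEAD element as CATTCC, the SMAD element as CAGACA and the AP-1 site as TGANTCA. Only the capitals of Bgn hold overlapping matches, with 2 bases in more than 1 match.
Serpinf1, chr11:75422624-75422873, minus strand: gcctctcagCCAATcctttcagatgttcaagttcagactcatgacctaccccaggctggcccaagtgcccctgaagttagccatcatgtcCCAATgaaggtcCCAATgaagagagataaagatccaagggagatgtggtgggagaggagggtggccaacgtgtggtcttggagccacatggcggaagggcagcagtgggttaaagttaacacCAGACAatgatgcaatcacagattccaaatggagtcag
Bgn, chrX:73483351-73483600, plus strand: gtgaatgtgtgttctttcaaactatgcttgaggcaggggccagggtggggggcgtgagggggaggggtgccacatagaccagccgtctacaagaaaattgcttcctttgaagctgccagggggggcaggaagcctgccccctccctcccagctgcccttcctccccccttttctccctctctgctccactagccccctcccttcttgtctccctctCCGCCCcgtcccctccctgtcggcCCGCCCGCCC
Sparc, chr11:55420081-55420330, minus strand: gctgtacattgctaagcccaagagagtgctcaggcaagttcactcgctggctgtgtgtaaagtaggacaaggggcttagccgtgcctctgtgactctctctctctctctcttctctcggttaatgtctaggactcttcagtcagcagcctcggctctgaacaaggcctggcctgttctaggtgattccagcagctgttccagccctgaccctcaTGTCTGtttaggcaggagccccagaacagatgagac
Fbln2, chr6:91212514-91212763, plus strand: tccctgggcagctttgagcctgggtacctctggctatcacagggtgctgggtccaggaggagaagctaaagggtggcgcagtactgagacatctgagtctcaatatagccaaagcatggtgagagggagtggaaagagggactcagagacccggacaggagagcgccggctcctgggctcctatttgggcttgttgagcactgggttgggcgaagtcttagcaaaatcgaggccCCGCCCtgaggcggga
Prelp, chr1:133921402-133921651, minus strand: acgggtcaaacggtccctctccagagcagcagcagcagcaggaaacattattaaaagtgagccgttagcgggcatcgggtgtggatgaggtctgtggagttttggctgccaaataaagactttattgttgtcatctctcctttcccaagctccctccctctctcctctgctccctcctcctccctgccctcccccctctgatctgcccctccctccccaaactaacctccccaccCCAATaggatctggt
The 5 promoters differ in what they hold: Serpinf1 and Sparc have CAGACA, Bgn and Fbln2 have GGGCGG, Serpinf1 and Prelp have CCAAT, and none of the 5 has the TATA box, the TEAD element or the AP-1 site in these letters. Over the 27 windows of 21 of the 34 genes, CAGACA was found in 10 (37.0%), against 17.1% of all 32851 promoter windows. GGGCGG was found in 12 (44.4% against 32.7%), CCAAT in 9 (33.3% against 33.8%), TATAAA in 6 (22.2% against 12.4%), CATTCC in 3 (11.1% against 12.6%) and TGANTCA in 0 (against 6.75%). Some windows belong to the same gene, the motifs were chosen after the expression values were seen, and a match is a description of letters.

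The 2 arrays of each TAC group differed from each other across the list. Relative to transgenic sham, the median of the 27 genes was 0.42 in transgenic TAC 1 and 0.82 in transgenic TAC 2. Relative to wild-type sham it was 0.95 in wild-type TAC 1 and 0.34 in wild-type TAC 2, while the median over all genes was between -0.02 and 0.03 on each of the 4 arrays. Transgenic TAC 2 lay above transgenic TAC 1 for 25 of 27 genes (58.7% of all genes), and wild-type TAC 2 above wild-type TAC 1 for 3 of 27 (54.8% of all genes). The highest array of a gene was transgenic TAC 2 for 13 genes and wild-type TAC 1 for 10. The median difference of TAC 2 minus TAC 1 was 0.46 in transgenic and -0.53 in wild-type arrays, in size above the distance of the lower TAC array from its sham in both genotypes.

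**Figure D3:**
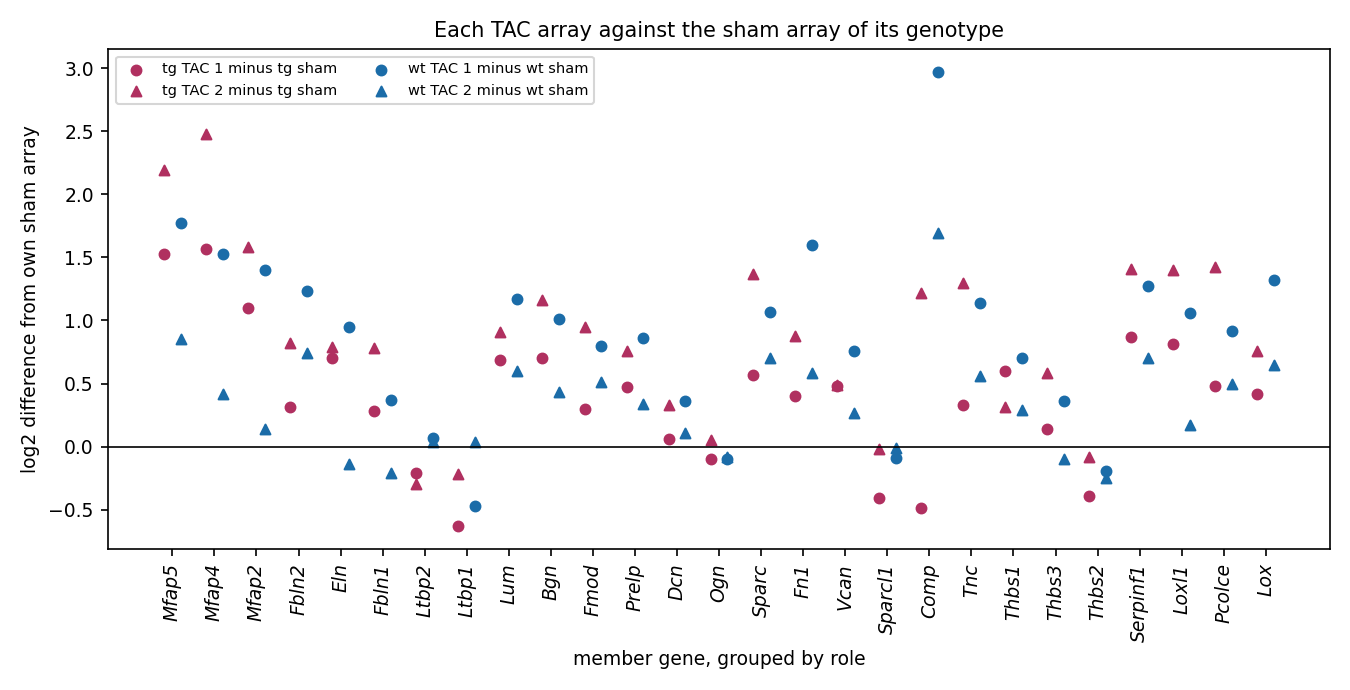
Log2 difference of each TAC array from the sham array of its genotype, for the 27 tested genes grouped by role; red marks transgenic, blue wild-type arrays, circles TAC 1 and triangles TAC 2. Medians are 0.42 and 0.82 for the transgenic arrays and 0.95 and 0.34 for the wild-type arrays.

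Fibroblast markers were also higher after TAC as a sum. The summed intensity of the 34 genes was 64223 and 88093 in transgenic TAC and 81151 and 58238 in wild-type TAC arrays, against 47552 in transgenic sham and 46659 in wild-type sham. That of 15 fibroblast markers was 10512 and 13252 in transgenic TAC and 14066 and 9165 in wild-type TAC arrays, against 7380 in transgenic sham and 7669 in wild-type sham. Of 14 tested fibroblast markers 14 were higher after TAC (median 0.40), beside 48.6% of all genes. Pi16 was at 1.11 ± 0.21, Cd248 at 0.90 ± 0.28, and the lineage markers Pdgfra at 0.22 ± 0.13 and Tcf21 at 0.28 ± 0.24. The list includes Col1a1, Col1a2 and Col3a1, which are also counted among the collagen chains below. Of the 14, 8 were higher with no overlap with sham, beside 8.39% of all genes. Other markers did not follow the matrix genes array by array: Gsn was highest on transgenic TAC 1 (10.78) and lowest on transgenic TAC 2 (9.03). Tcf21 and Islr also peaked on transgenic TAC 1 (9.40 and 7.50), and on wild-type TAC 2 Tcf21 (8.45), Thy1 (8.94), Gsn (9.15) and Islr (6.42) lay below wild-type sham (8.87, 9.38, 9.62 and 6.69). The part of fibroblast number in the result was not tested.

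Cardiomyocyte markers had a median of -0.02, with 4 of 9 higher, beside 48.6% of all genes. None of the 9 passed over all genes in limma, and 4 were lower at an unadjusted p under 0.05, beside 4.48% of all genes, and 0 higher. The 4 were the calcium channel Ryr2 (-0.42 ± 0.11), its fellow calcium-handling gene Pln (-0.46 ± 0.14), the creatine kinase Ckm (-0.33 ± 0.11) and troponin I, Tnni3 (-0.28 ± 0.12). By the same measure endothelial markers had a median of 0.21 (8 of 9 higher), macrophage markers 0.10 (6 of 8) and smooth muscle and pericyte markers 0.08 (7 of 9). Of the mesothelial markers 2 of 6 lay above the filter, and of adipocyte markers 1 of 5. The part of these cells in the result was not tested.

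Other matrix lists differed in how far they moved. Over all genes tested 48.6% were higher after TAC, and 8.39% were higher with no overlap. Collagen chains had a median of 0.87, with 14 of 15 higher and 12 not overlapping. The smallest p were those of Col8a1 (1.51 ± 0.32), Col4a2 (0.87 ± 0.19) and Col4a1 (0.81 ± 0.19), while other chains such as Col1a1 (1.51 ± 0.36) and Col6a2 (1.17 ± 0.34) differed by more than the Col4 chains. A list of 29 tested other matrix genes, among them laminins, nidogens and perlecan, had a median of 0.19, with 23 higher and 6 not overlapping. Tgfbi, a TGF-beta-induced adhesion protein (0.75 ± 0.16), Srpx (0.94 ± 0.22) and the basement membrane linker Nid1 (0.61 ± 0.18) had the smallest p. Of 11 other crosslinking and collagen-modifying enzymes all 11 were higher, by a median of 0.30, with transglutaminase Tgm2 at 0.27 ± 0.11, the procollagen proteinase Bmp1 at 0.50 ± 0.24 and the collagen chaperone Serpinh1 at 0.35 ± 0.17. Of 10 tested genes of the TGF-beta axis 7 were higher (median 0.22), with Ccn2 at 1.09 ± 0.25, Tgfb2 at 0.90 ± 0.29 and Tgfb3 at 0.65 ± 0.23, and Tgfb1 was at 8.11 and 8.78 in transgenic TAC and 8.53 and 8.59 in wild-type TAC arrays, against 8.42 in transgenic sham and 8.58 in wild-type sham. None of the genes on these lists passed over all genes in limma, where 11 collagen, 9 other matrix, 1 enzyme and 5 TGF-beta axis genes were higher at an unadjusted p under 0.05, beside 4.75% of all genes. The difference between the lists was not tested.

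**Figure D4:**
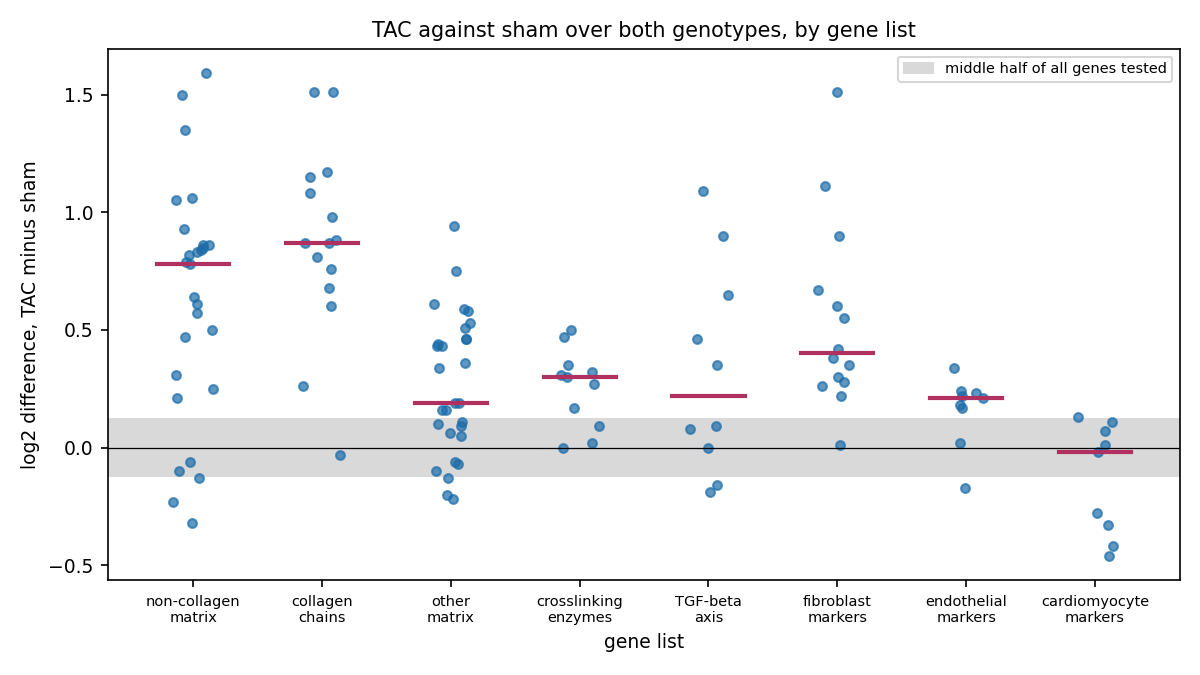
Log2 difference between TAC and sham over both genotypes (4 against 2 arrays) for the genes of each list; points are genes, red lines medians, and the grey band is the interquartile range of all 11157 genes tested. The medians are 0.78 for the 27 non-collagen matrix genes, 0.87 for collagen chains and -0.02 for cardiomyocyte markers.

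Within each genotype 1 sham array serves as the only baseline, and its own spread was taken to equal that of the TAC arrays. In transgenic arrays 22 of 27 genes were higher after TAC (50.9% of all genes), with a median of 0.61, and 21 lay above sham on both TAC arrays (31.1% of all genes). By limma 0 passed (0.0% of all genes) and 12 were higher at an unadjusted p under 0.05 (2.24% of all genes). Mfap4 (2.03 ± 0.49, 4.09-fold) and Mfap5 (1.87 ± 0.40) had the smallest p, with an adjusted p of 0.99 for both in limma. With Xist as a covariate 14 of 27 were higher, with a median of 0.00 and 0 at an unadjusted p under 0.05. Within groups Xist differed mainly between wild-type TAC 1 (10.5) and wild-type TAC 2 (5.38), so the slope on Xist came mostly from that pair. The run therefore cannot separate sex from surgery in the transgenic arrays. Without transgenic TAC 1, where a single TAC array faces a single sham array and the error comes from the wild-type TAC pair, 8 passed in limma, among 237 genes in all (2.12%).

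In wild-type arrays 23 of 27 were higher after TAC (47.1% of all genes), with a median of 0.66, and 20 lay above sham on both TAC arrays (34.4% of all genes). By limma 0 passed (0.0% of all genes) and 13 were higher at an unadjusted p under 0.05 (1.88% of all genes), which was 0 without wild-type TAC 1. Lum (0.89 ± 0.25) and Fbln2 (0.99 ± 0.29) had the smallest p, with an adjusted p of 1.00 for both in limma. With Xist as a covariate 23 of 27 were higher, with a median of 0.98 and 19 at an unadjusted p under 0.05 in limma. That median lay near the 0.95 of wild-type TAC 1 against wild-type sham. The slope on Xist came mostly from the wild-type TAC pair, so the run cannot separate sex from other differences between those 2 arrays.

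Comp, cartilage oligomeric matrix protein, the fifth thrombospondin, was the most variable of the genes. It was at 7.14 and 8.85 in transgenic TAC and 9.56 and 8.28 in wild-type TAC arrays, against 7.63 in transgenic sham and 6.59 in wild-type sham. Both wild-type TAC arrays lay above their sham, while the transgenic TAC arrays lay on either side of theirs. The TAC difference was 0.36 ± 0.69 in transgenic and 2.33 ± 0.69 in wild-type arrays, and over both genotypes it was 1.35 ± 0.56 (adjusted p = 0.508 in limma). Leaving out wild-type sham gave 0.36 and leaving out transgenic sham gave 2.33, each of which leaves a single genotype to set it.

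Its second probe gave the same order of arrays, as did 3 of 7 tested genes of an atrial list. Sln, sarcolipin, was at 6.04 and 8.09 in transgenic TAC and 10.50 and 7.35 in wild-type TAC arrays, against 6.64 in transgenic sham and 5.95 in wild-type sham. Myl4, an atrial light chain, was at 9.03 and 10.80 in transgenic TAC and 12.48 and 9.84 in wild-type TAC arrays, against 9.46 in transgenic sham and 8.85 in wild-type sham. Both genes, and Myl7, ranked the 6 arrays in the same order as Comp, while Nppa, Dkk3, Tbx5 and Nr2f2 did not. Of the 27 matrix genes Comp alone had that order, as did 29 of 11157 genes tested (0.26%). The arrays highest for Sln, Myl4 and Myl7, wild-type TAC 1 followed by transgenic TAC 2, also held the highest value of 10 and 13 of the 27 matrix genes. The part of atrial tissue in the values of Comp, or of the other matrix genes, was not tested.

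**Figure D5:**
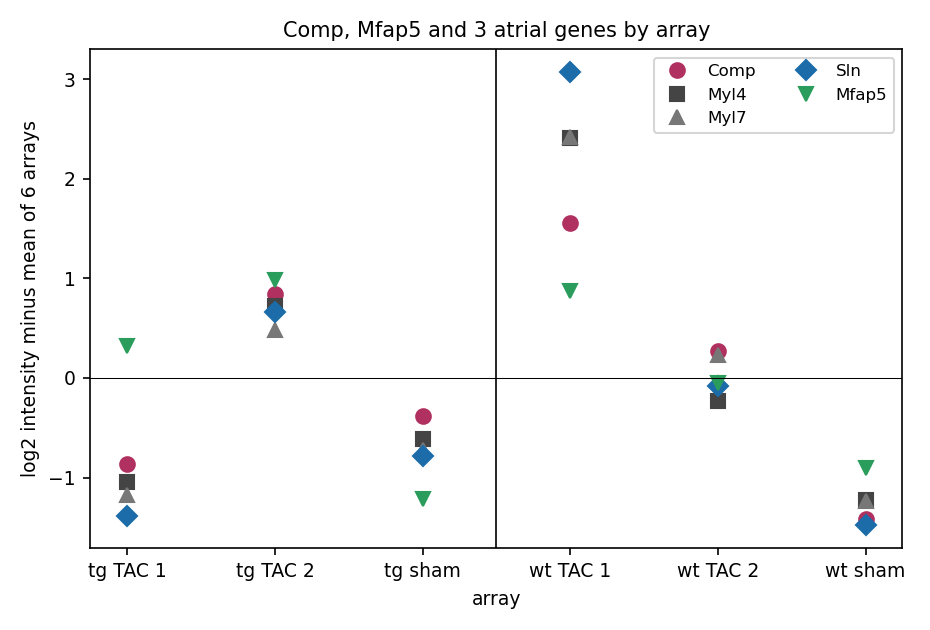
Log2 intensity on each array minus the gene's mean over the 6 arrays, for Comp, the microfibril gene Mfap5 and the atrial genes Myl4, Myl7 and Sln. Comp follows the atrial genes in ranking transgenic TAC 1 below transgenic sham, whereas Mfap5 ranks it above.

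Whether TAC acted differently in transgenic hearts was tested as the interaction of surgery and genotype. For the 27 genes the TAC difference in transgenic minus that in wild-type arrays had a median of -0.01, against 0.01 over all genes, and 13 were positive (52.3% of all genes). Leaving out TAC 1 of the transgenic pair made 19 positive and leaving out its TAC 2 made 8, while in the wild-type pair the counts were 21 when TAC 1 was dropped and 8 when TAC 2 was. Comp (-1.97 ± 0.97), Ltbp2 (-0.31 ± 0.18) and Mfap4 (1.05 ± 0.70) had the smallest p, each with an adjusted p of 1.00 in limma. Leaving out 1 TAC array gave -2.82 (without transgenic TAC 2) to -1.12 (without transgenic TAC 1) for Comp and 0.50 (without wild-type TAC 2) to 1.61 (without wild-type TAC 1) for Mfap4. By limma 0 of 27 and 0.0% of all genes passed, and 0 of 27 had an unadjusted p under 0.05, beside 0.69% of all genes in the positive and 0.95% in the negative direction. With Xist as a covariate the median was -0.78, with 2 of 27 positive, and Mfap4 stood at -0.80. The slope on Xist came mostly from the wild-type TAC pair here too. Both arrays of low Xist enter this difference with a minus sign, so sex and response cannot be told apart.

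Genotype was then compared with both surgeries pooled, 3 arrays against 3. The matrix genes lay close to 0: the median of the 27 was 0.06, with log2 differences between -0.43 and 0.42, and 16 were higher, beside 47.6% of all genes. Dropping TAC 1 of the transgenic pair gave 21 and dropping its TAC 2 gave 11, and in the wild-type pair the counts were 22 when TAC 1 was dropped and 8 when TAC 2 was. By limma 0 of 27 passed, against 104 genes in all (0.932%), and 1 was higher at an unadjusted p under 0.05 (5.66% of all genes). That gene was Lum, at 12.20, 12.42 and 11.51 in transgenic TAC 1, TAC 2 and sham, against 12.24, 11.67 and 11.07 in wild-type TAC 1, TAC 2 and sham. The arrays overlapped, and the difference was 0.38 ± 0.15 (adjusted p = 0.39 in limma). It was 0.23 without wild-type TAC 2 and 0.07 without both arrays of low Xist, where 5 of the 27 genes were higher and their median was -0.15.

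Ogn was at 11.47, 11.62 and 11.57 in transgenic TAC 1, TAC 2 and sham, against 11.30, 11.32 and 11.40 in wild-type TAC 1, TAC 2 and sham. It was the single gene of the list whose transgenic arrays all lay above the wild-type ones, as 7.6% of all genes did, by 0.21 ± 0.11 (adjusted p = 0.524 in limma). Fn1 (-0.43 ± 0.26) and Ltbp1 (-0.33 ± 0.19) had the largest negative differences, with overlapping arrays. Without wild-type TAC 1 that of Fn1 was -0.10. All 6 tested small leucine-rich proteoglycans had a positive difference, of 0.06 to 0.38, beside 47.6% of all genes. Of these only Lum had an unadjusted p under 0.05 in limma, and the family as a set was not tested. Smooth muscle actin Acta2, by contrast, fell by 1.67 ± 0.23 (adjusted p = 0.0118 in limma).

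After TAC alone, transgenic against wild type gave a median of 0.06 over the 27 genes, with 18 higher (49.2% of all genes) and 0 past the test in limma (0.206% of all genes). The direction turned with single arrays: 5 were higher without wild-type TAC 2 (median -0.15) and 7 without transgenic TAC 2 (-0.09), but 22 without wild-type TAC 1 (0.27) and 22 without transgenic TAC 1 (0.30). Of the 27, 0 had an unadjusted p under 0.05, beside 2.88% of all genes in each direction. Mfap4 (0.77 ± 0.40), Lum (0.35 ± 0.21) and Fn1 (-0.58 ± 0.34) had the smallest p. The SE of these differences ranged between 0.10 for Ltbp2 and 0.56 for Comp.

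The sham arrays, 1 against 1, have no replicate check. Of the 27 genes 14 were higher in transgenic sham than in wild-type sham (47.1% of all genes), with a median difference of 0.07. Comp was the single gene with a log2 difference of at least 1 (1.04, from 7.63 in transgenic and 6.59 in wild-type sham), beside 0.663% of all genes. Fbln2 (10.86 in transgenic and 10.36 in wild-type sham) and Lum (11.51 and 11.07) followed, higher by 0.50 and 0.44.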

How the data were processed

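RNA from 6 mouse hearts or heart pools was hybridised to Illumina bead arrays. The deposited table holds 1 linear intensity per probe and array. The columns have nearly equal quantiles, so the arrays were normalized to each other before deposit; how the authors corrected and normalized the deposited intensity values, and with what software, none of the sources used here states. Values below 32 (12 in all) were set to 32 and log2 was taken. The platform annotation names 1 gene for 34885 of the 45281 probes, 18 had more than 1 and 10378 had no symbol. Old symbols were replaced through gene identifiers or accessions in a table of GRCm38.p6 (34843 probes matched). The brightest probe stood for each of 19030 genes, and the 11157 genes above the 50th percentile of named probes (log2 5.88) were tested. Background was not subtracted, so folds of dim probes understate a change.

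Linear models were fitted in limma 3.58.1 under R 4.3.3, with variances moderated along an intensity trend. P-values were adjusted by Benjamini-Hochberg across all 11157 tested genes, and 0.05 was the limit. A model of surgery plus genotype gave the comparisons over both genotypes or surgeries, and a model of the 4 groups gave the others. Errors are standard errors of these fits. The steps were tested on simulated data. Lists are described by counts and medians, with no test. The members and gene lists were chosen with earlier results of these data known. Values on every array are given for the 8 smallest p after TAC, the 4 smallest between genotypes, the 3 smallest for the difference of the responses, the 3 largest sham differences, and Postn, Tnc, Thbs4, Comp, Lox, Fn1, Cilp and Cthrc1. The replicate numbers of the TAC arrays are not stated to pair them.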

Additional observations from a re-analysis of the deposited data

Results flagged for a closer look

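In 3 genes every transgenic TAC array moved one way from its sham and every wild-type TAC array the other way, which is 8.82% of the 34, beside 17.3% of all 19030 genes on the array and 14.0% of the 11157 tested. Ltbp2 had a mean TAC difference of -0.26 in transgenic and 0.05 in wild-type arrays, a difference of -0.31, whose limma test gave an adjusted p of 1.00. Cthrc1 had -0.06 in transgenic and 0.23 in wild-type arrays, a difference of -0.29. Loxl3 had -0.13 in transgenic and 0.01 in wild-type arrays, a difference of -0.14. The last 2 lay below the intensity filter and their differences were not tested. All 3 genes were dim, between 5.42 and 6.04 on the log2 scale.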

How the results depend on the processing

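No member passed the adjusted threshold in any comparison or alternative run, other than without transgenic TAC 1. Leaving out 1 array gave 0 to 3 members past the test for TAC over both genotypes and 0 to 8 within transgenic arrays. The median TAC difference over both genotypes was 0.61 to 0.89 without 1 array and 0.41 when a gene's probes were summarised by their median, against 0.78. Within wild type the members with an unadjusted p under 0.05 numbered 13, but 8 by the median over probes, 8 with no intensity trend, and 0 to 18 without 1 array. Within transgenic arrays Xist as a covariate gave 14 higher members in place of 22, a median of 0.00 in place of 0.61, and 0 in place of 12 with an unadjusted p under 0.05. Within wild type it gave a median of 0.98 in place of 0.66, and over both genotypes 0.71 in place of 0.78 with 22 higher. In the model of the 4 groups its slope came mostly from the wild-type TAC pair. The same covariate gave a median of -0.78 for the difference of the responses in place of -0.01, and turned Mfap4 there to -0.80. By the median over probes the genotype difference of Fn1 was 0.00, with the sign turned, and the TAC difference of Serpinf1 was 0.46. The causes were not tested. Over all genes, 1 passed for TAC over both genotypes and 0 to 37 without 1 array. Between genotypes 104 passed, 24 to 471 without 1 array, 44 with the filter at the 75th percentile, 51 by the median over probes and 54 with Xist as a covariate. Without both arrays of low Xist 0 passed. After TAC 23 passed between genotypes, 0 to 188 without 1 array, 53 with the replicate block, 37 with no filter, and 5 to 11 by the median over probes, cyclic loess, no trend or the 75th percentile. Where 0 passed, the most was 237 in transgenic arrays (without transgenic TAC 1), 11 in wild type and 4 for the difference of the responses (Xist as a covariate).

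Same-numbered TAC arrays deviated with r = -0.029 across genes, so the numbers are not taken to pair them. With the replicate block, 0 members passed for TAC over both genotypes, their median was 0.78 and 19 had an unadjusted p under 0.05, against 18. Dim probes limit the 7 untested members and understate the differences of Fmod, Vcan, Thbs1 and Tnc. TAC within transgenic arrays has no fit without transgenic sham or without both arrays of low Xist, since no transgenic sham array is then left.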

Other observations

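Of 10 marker genes of valve and tendon cells 3 lay above the filter. Sox9, a regulator of cartilage matrix genes, was at 10.41 and 11.00 in transgenic TAC and 10.65 and 9.76 in wild-type TAC arrays, against 9.70 in transgenic sham and 9.35 in wild-type sham (0.93 ± 0.25, adjusted p = 0.339 in limma). Scx, a tendon transcription factor, was at 8.47 and 8.03 in transgenic TAC and 9.15 and 8.29 in wild-type TAC arrays, against 7.45 in transgenic sham and 8.13 in wild-type sham. The tendon gene Tnmd stayed between 5.62 and 5.92. Upk3b, a mesothelial gene, was at 7.91 in wild-type TAC 1 and at 5.68 to 6.41 on the other 5 arrays. Dkk3, a secreted Wnt modulator of the atrial list, was at 9.44 and 10.63 in transgenic TAC and 10.25 and 9.07 in wild-type TAC arrays, against 8.60 in transgenic sham and 7.85 in wild-type sham (1.62 ± 0.37, adjusted p = 0.274 in limma). These genes were described after their values were seen.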
